A study of Mus musculus with 6 samples.

Results

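ADAM proteins are membrane-anchored metalloproteases that also carry a disintegrin domain, and ADAMTS proteins are their secreted relatives with thrombospondin repeats. In the male germ line, many ADAMs have lost the protease active site and sit as complexes on the sperm surface, where they serve sperm passage into the oviduct and binding to the egg coat. In somatic cells, ADAMs release growth factors, cytokines and receptors from the cell surface, and ADAMTS proteases cut matrix proteins such as procollagens and large proteoglycans. The members described here were the protein-coding genes of the mouse genome build GRCm38 whose symbol begins with Adam and that had 10 or more counts in at least 2 libraries. Of 58 annotated genes of this name, 52 were members, and 6 did not reach the minimum. None was left out for its position, since 0 of the 58 started in the stretch of chromosome 4 around the targeted Padi genes that the selection excluded. The members were divided by role lists, drawn up by gene name, into 20 germ-cell members and 32 somatic members. Whole testis was sequenced, so these class names do not show which cells a member's RNA came from. The 6 genes below the minimum were Adamdec1, Adam7, Adam28, Adamts13, Adamts18 and Adamts8, whose second-highest counts were 0, 0, 1, 1, 4 and 8, and the members nearest above it were Adam33 and Adamts14, with 14 and 16. Adam7, a gene of the epididymal epithelium, had counts of 0 in 5 libraries and of 2 in the other.

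The libraries came from whole testes of mice 4 months old, and they were poly(A)-selected and directional. Wild-type mice (WT) were FVB/NJ. Padi2 knockout mice (P2KO), on the same background, carry a gene trap in which LacZ and Neomycin sequence takes the place of part of exon 1 of Padi2, which encodes an enzyme that converts arginine in proteins to citrulline. Double knockout mice (DKO) also lack 4 nucleotides of exon 1 of Padi4, a deletion made by CRISPR on the Padi2 knockout line, and they descend from 1 founder. Each genotype had 2 libraries, from 2 mice. Reads counted on genes came to 21939393 and 26081756 in WT, 27306679 and 23072179 in P2KO, and 26068171 and 23366962 in DKO. Padi4 (chr4:140745865-140774236) had counts of 20 and 43 in WT, 11 and 10 in P2KO, and 4 and 4 in DKO. The DKO libraries were the lowest and did not overlap the others, and the log2 fold change of DKO against WT was -2.94 ± 0.51 (SE, n = 2 and 2; edgeR quasi-likelihood test, Benjamini-Hochberg adjusted p = 0.000278). The P2KO libraries were also below both WT libraries, with a log2 fold change of -1.63 ± 0.42 (adjusted p = 0.0959, edgeR), and DKO against P2KO gave -1.31 ± 0.63 (adjusted p = 0.404, edgeR), so neither of these comparisons was called. Padi2 (chr4:140906344-140952586) had counts of 47 and 64 in WT, 100 and 55 in P2KO, and 59 and 83 in DKO, with overlapping groups and log2 fold changes of 0.40 for P2KO and 0.35 for DKO against WT (adjusted p = 0.686 and 0.575, edgeR), so it was not lower in the knockout libraries. Counts per gene do not show where on the gene the reads lie, so they do not check a replaced stretch of exon 1. By RT-PCR of salivary gland, the paper found no Padi2 transcripts in P2KO or DKO mice. By western blot of spleen, it found neither enzyme in DKO mice. Those checks used tissues other than the one sequenced here, and WT, P2KO and DKO below therefore stand for the labels of the libraries.

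Germ-cell members dominated the family's RNA. On the TPM scale (counts divided by the merged exon length of the gene and scaled to the same sum in each library, so that genes can be compared), their summed level was 3813 and 3577 in WT, 3733 and 3813 in P2KO, and 3872 and 4034 in DKO, and that of the somatic members was 70.7 and 63.0 in WT, 67.8 and 72.0 in P2KO, and 73.0 and 74.6 in DKO. Germ-cell members thus held from 98.1% to 98.3% of the members' TPM in each of the 6 libraries, and the ratio of both sums ran from 52.9 to 56.8, with no separation of the genotypes. With the length of the longest transcript in place of the merged exon length, the mean ratio over the libraries was 47.2 instead of 54.3. The median of the members' mean TPM was 61.6 for germ-cell members and 0.702 for somatic ones. The lowest germ-cell member, Adam26b, had a mean of 13.1 TPM, close to the highest somatic member, Adam10, with 14.3 TPM.

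**Figure D1:**
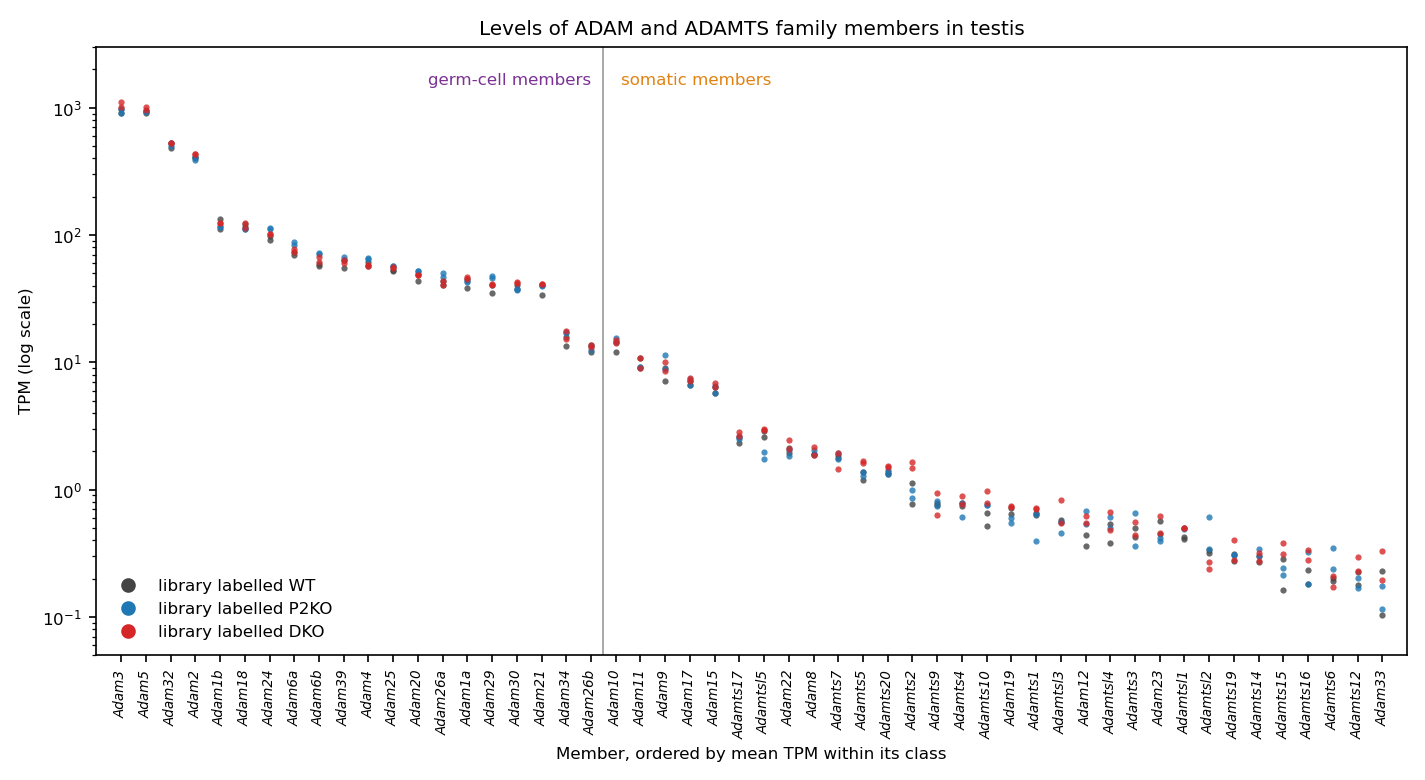
Level of each member in each library, in TPM on a log scale, with 1 point per library coloured by its label and members ordered by mean TPM within the germ-cell (left) and somatic (right) classes. Adam3, Adam5, Adam32 and Adam2 stand above all other members, and the libraries of the 3 genotypes lie close together for germ-cell members and spread more widely for the scarcest somatic members.

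Among the 10 sperm-surface ADAMs, 4 genes carried most of this signal. Adam3, the cyritestin gene, whose protein sperm need to enter the oviduct and to bind the zona pellucida, had TPM of 984 and 916 in WT, 901 and 969 in P2KO, and 1008 and 1102 in DKO. Adam5, a sperm-surface relative of cyritestin, averaged 948 ± 34.8 TPM (SD, n = 6 libraries), and Adam32, a testis gene of the same chromosome, averaged 518 ± 18.2 TPM. Adam2, which encodes fertilin beta, averaged 413 ± 16.2 TPM. Together these 4 genes held from 72.3% to 74.7% of the members' TPM. The means of Adam3 and Adam5 differed by less than the SD of Adam3 over libraries (72.3 TPM), so their order is not resolved, whereas Adam32 and Adam2 lay lower in every library. Fertilin alpha is encoded in the mouse by Adam1a, whose protein stays in the endoplasmic reticulum of germ cells, and Adam1b, whose protein reaches the sperm surface. Adam1b averaged 121 ± 7.79 TPM and Adam1a 43.6 ± 3.03 TPM. The remaining sperm-surface members were Adam18 at 117 TPM, Adam6a at 77.7 TPM, Adam6b at 64.7 TPM and Adam4 at 60.9 TPM. Adam6a and Adam6b, which lie in the immunoglobulin heavy chain region of chromosome 12, encode proteins that associate with ADAM2 and ADAM3 on sperm.

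The testis ADAMs of the intron-poor group, which includes the testases, were less abundant. Adam24, the testase gene linked to the block to polyspermy, was the highest of the 10, with TPM of 97.7 and 91.8 in WT, 114 and 111 in P2KO, and 102 and 102 in DKO. Adam39 and Adam25 followed and averaged 62.3 ± 4.22 and 55.0 ± 2.31 TPM (SD, n = 6 libraries). The summed TPM of the 10 genes was 457 and 415 in WT, 487 and 494 in P2KO, and 461 and 469 in DKO. The P2KO sums were the highest and did not overlap the WT sums, and the DKO sums lay between P2KO and the higher WT library. Structure differed within the germ-cell class, and the selection used neither structure nor position. The largest annotated transcripts had a median of 17.5 exons (1 to 22) for sperm-surface members and 2 (2 to 4) for the intron-poor group. Over all 20 germ-cell members the median was 2 exons (range 1 to 22), against 23 (8 to 40) for somatic members. By position, 12 of the 20 lay on chromosome 8, 4 on chromosome 12 and 2 on chromosome 5. The 32 somatic members were spread over 17 chromosomes, with 1 on chromosome 8. Reads may be shared between near-identical copies, so some levels are uncertain. Adam25 and Adam39 were 95.5% identical over 2620 aligned nucleotides, and Adam26a and Adam26b 95.1% over 2345. Adam6a and Adam6b were 93.4% identical, and Adam1a and Adam1b 87.25% over the stretch that aligned. Adam34 was 90.01% identical to Adam26b and 89.0% to Adam26a, and Adam20 was 88.02% identical to Adam25 and 87.69% to Adam39. Adam1a lies within the annotated extent of Mapkapk5 and Gm42878, Adam4 overlaps Cox16 and Gm20498, and Adam34 overlaps Gm5347 and Gm35629, each on the same strand, so reads of these 3 members cannot be assigned with certainty. The same holds for the somatic members Adam12 (A130023I24Rik, Gm23631 and Gm19514), Adamtsl1 (Sh3gl2 and Gm26069), Adam22 (Gm24196 and Gm42490), Adamtsl3 (Gm44919), Adamts17 (Gm17909), Adam8 (Mir7062) and Adam19 (Mir8100), with the overlapping genes of the same strand in brackets. Among somatic members, Adam12 had a processed pseudogene copy of 373 nucleotides on chromosome 17, and Adam15, Adam19 and Adamts9 overlapped genes on the opposite strand, as did Adamts2 and others. The germ-cell members Adam3, Adam32, Adam2, Adam1a, Adam1b and Adam34 also overlapped genes on the opposite strand. Which of the strand counts of the aligner was deposited is not given in the sources used here, so antisense reads could have been counted with these genes.

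The 4 most abundant germ-cell members lacked the protease site, as did 5 others at lower levels. The metalloprotease domain binds zinc through 3 histidines of a conserved signature, the reprolysin zinc-binding motif, and a glutamate within it is the catalytic residue. A search of the longest coding sequence of each gene found the motif in 11 of 20 germ-cell members and in 24 of 32 somatic members, against 73 of 21562 protein-coding genes (0.339%). The 9 germ-cell members without it were Adam2, Adam3, Adam4, Adam5, Adam6a, Adam6b, Adam18, Adam29 and Adam32, and the 8 somatic members without it were the neural ADAMs Adam11, Adam22 and Adam23 and the 5 ADAMTS-like genes, which are known to lack a working protease domain. The summed TPM of germ-cell members without the motif was 3218 and 3047 in WT, 3135 and 3204 in P2KO, and 3281 and 3438 in DKO, and that of members with it was 596 and 529.9 in WT, 599 and 609.6 in P2KO, and 591 and 597 in DKO. Genes without the motif therefore held from 84.0% to 85.2% of germ-cell member TPM in each library. The coding sequences of germ-cell members were of similar length, with a median of 756 residues (697 to 822), and those of somatic members ranged from 485 to 1931 residues. The site is printed for 4 of the 11 germ-cell members that keep it (Adam1b and the 3 most abundant intron-poor genes), for the somatic ADAMs Adam9, Adam12 and Adam17, and for Adamts2, the member called in both DKO comparisons, so that the coding sequences of the active site can be read side by side. Capitals mark the codons of the 3 zinc-binding histidines and of the catalytic glutamate. Each is read 5′ to 3′ on the coding strand from the GENCODE transcripts of GRCm38.
Adam1b: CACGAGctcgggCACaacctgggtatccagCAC
Adam24: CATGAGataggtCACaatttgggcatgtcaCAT
Adam25: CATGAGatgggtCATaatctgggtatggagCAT
Adam39: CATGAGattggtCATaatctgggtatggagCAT
Adam9: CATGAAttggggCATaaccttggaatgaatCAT
Adam17: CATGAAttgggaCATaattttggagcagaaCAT
Adam12: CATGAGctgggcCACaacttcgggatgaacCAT
Adamts2: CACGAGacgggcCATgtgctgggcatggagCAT
The Adam1b site lies in exon 1 at chr5:121501937-121501969 on the reverse strand, and Adam1a carries the same stretch in its exon 1 at chr5:121520089-121520121. The sites of Adam24 (chr8:40680518-40680550), Adam25 (chr8:40754761-40754793) and Adam39 (chr8:40825636-40825668) each lie in exon 2 on the forward strand of chromosome 8, and Adam20 carries the Adam39 stretch at chr8:40795917-40795949. The Adam9 site (chr8:24990326-24990358, exon 11), the Adam17 site (chr12:21336732-21336764, exon 12) and the Adam12 site (chr7:133961158-133961190, exon 11) are on the reverse strand. The Adamts2 site is joined from neighbouring exons of the gene (chr11:50602084-50807573, forward strand).

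Somatic members were led by ADAMs with a general role in cutting proteins from the cell surface. Adam10, the main sheddase of Notch receptors, averaged 14.3 ± 1.21 TPM (SD, n = 6 libraries), Adam9, a sheddase also called meltrin gamma, 9.16 ± 1.44 TPM, and Adam17, the tumour necrosis factor converting enzyme, 7.09 ± 0.373 TPM. The summed TPM of the 8 sheddase and other catalytic somatic ADAMs was 40.1 and 34.6 in WT, 39.7 and 43.5 in P2KO, and 42.6 and 40.3 in DKO. WT replicate 2 had the lowest sum, and WT replicate 1 lay among the P2KO and DKO sums, so the genotypes overlapped. Of the neural ADAMs without protease activity, which bind LGI proteins at synapses, Adam11 averaged 9.66 ± 0.881 TPM, Adam22 2.08 ± 0.206 TPM and Adam23 0.482 ± 0.0888 TPM. Adam11 was thus the second most abundant somatic member in mean TPM, close to Adam9. No ADAMTS member reached the level of Adam10, Adam11, Adam9 or Adam17, but Adamts17 lay above Adam22 and several others above Adam23. Adamts17, a member tied to fibrillin microfibrils, averaged 2.58 TPM, Adamts7, which cuts cartilage oligomeric matrix protein, 1.79 TPM, and Adamts10, also tied to fibrillin, 0.741 TPM. The proteoglycanases, which cut aggrecan and versican, reached 1.42 TPM for Adamts5, 1.41 TPM for Adamts20 and 0.781 TPM for Adamts9. Among the procollagen N-proteinases, which remove the amino-terminal propeptide of fibrillar collagens, Adamts2 averaged 1.15 TPM, Adamts3 0.488 TPM and Adamts14 0.302 TPM. The ADAMTS-like genes encode matrix proteins that keep the accessory domains and lack the protease, and Adamtsl5, which binds fibrillin microfibrils, led them with 2.52 TPM, followed by Adamtsl3 with 0.588 and Adamtsl4 with 0.529 TPM. At these levels many somatic members rested on few counts, and their fold changes were correspondingly imprecise.

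P2KO was compared with WT to ask what the Padi2 gene trap alone does. No member passed the test, with 0 of 52 called at an adjusted p under 0.05 by edgeR's quasi-likelihood test and 0 by DESeq2 on all 6 libraries, against 0.337% of all 20744 tested genes called by edgeR. At an unadjusted p under 0.05, 8 members were higher (15.4% of members, against 4.55% of tested genes) and 1 was lower (1.92%, against 4.02%), and DESeq2 gave 5 and 1. These counts were 12 and 3 without WT replicate 1 and 4 and 2 without WT replicate 2. The share over tested genes is an uneven yardstick, since precision differed. The median SE was 0.0688 for germ-cell members, 0.227 for somatic members and 0.138 over all tested genes. Smaller shifts therefore reach that threshold among germ-cell members. Of the 8 higher members, 6 were germ-cell members, Adam29, Adam6b, Adam6a, Adam24, Adam26a and Adam20, and all 6 were among the 13 germ-cell genes with at most 2 exons. Adam29, a testis ADAM of the intron-poor group without the zinc motif (chr8:55870912-55906948), had normalized counts of 1105 and 998 in WT, 1296 and 1268 in P2KO, and 1133 and 1119.5 in DKO. Both P2KO libraries were above all 4 others, and the log2 fold change of P2KO against WT was 0.29 ± 0.07 (SE, n = 2 and 2; edgeR quasi-likelihood test, Benjamini-Hochberg adjusted p = 0.0932). Adam6b (chr12:113489511-113492057) had normalized counts of 1514 and 1514 in WT, 1839 and 1827 in P2KO, and 1570.0 and 1759.9 in DKO. Here too both P2KO libraries were the highest, with a log2 fold change of 0.28 ± 0.07 (edgeR quasi-likelihood test, Benjamini-Hochberg adjusted p = 0.0802). Adam6a, the neighbour of Adam6b, gave 0.23 ± 0.07 (edgeR quasi-likelihood test, Benjamini-Hochberg adjusted p = 0.149). Adam24 had normalized counts of 2821 and 2778 in WT, 3302 and 3268 in P2KO, and 2941 and 3018 in DKO and a log2 fold change of 0.23 ± 0.06 (edgeR quasi-likelihood test, Benjamini-Hochberg adjusted p = 0.108). Adam29, Adam6b and Adam24 passed the threshold after a correction for transcript length, with adjusted p of 0.0338, 0.0242 and 0.0301 in the same order. Without WT replicate 1, 1 member, Adam29, passed, with a log2 fold change of 0.36 and an adjusted p of 0.0118 by edgeR's quasi-likelihood test. Bulk RNA does not tell fewer or more cells of a type apart from less or more RNA per cell.

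Among somatic members, 3 had an unadjusted p under 0.05 in P2KO against WT, Adam12, Adam9 and Adamtsl5. Adam12, which encodes meltrin alpha (chr7:133883199-134232146), had normalized counts of 46.2 and 39.8 in WT, 72.7 and 57.5 in P2KO, and 65.1 and 59.4 in DKO. Both WT libraries were below the other 4, with log2 fold changes of 0.61 ± 0.24 for P2KO (unadjusted p = 0.0146, adjusted p = 0.426, edgeR) and 0.54 ± 0.24 for DKO (adjusted p = 0.285, edgeR), neither of which passed the test. Adam9 had normalized counts of 368 and 306 in WT, 365 and 476 in P2KO, and 414 and 363 in DKO, and the P2KO and WT libraries overlapped (log2 fold change 0.32, adjusted p = 0.421, edgeR). The Adam9 value was 0.18 without WT replicate 2, 0.50 without P2KO replicate 1 and 0.11 without P2KO replicate 2. Adamtsl5 was the only member lower in P2KO at an unadjusted p under 0.05, with a log2 fold change of -0.57 ± 0.17 (95% interval -0.92 to -0.22; edgeR quasi-likelihood test, Benjamini-Hochberg adjusted p = 0.223). Across members, 14 of 20 germ-cell and 19 of 32 somatic log2 fold changes were positive, with medians of 0.11 and 0.02, beside 0.0035 over all tested genes. Of all tested genes, 51.0% were positive. With 1 library left out, the germ-cell median ran from 0.0271 (without WT replicate 2) to 0.1331. The somatic median ran from -0.0281 (without P2KO replicate 2) to 0.0632 (without P2KO replicate 1). The 13 germ-cell members with at most 2 exons, a grouping chosen after the values had been seen, had a median of 0.13, and the other 7 a median of 0.0023. Over all 1166 tested protein-coding genes with at most 2 exons, the median was -0.02. The median SE of the log2 fold change was 0.0688 for germ-cell and 0.227 for somatic members. The 95% interval stayed within 1.5-fold either way for all 20 germ-cell members and for 14 of 32 somatic ones.

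DKO was compared with WT to ask what losing both enzymes does. Of 52 members, 1 was called, Adamts2, or 1.92% of members against 3.22% of all tested genes. Adamts2 (ENSMUSG00000036545), the main N-proteinase of types I, II and III procollagen, had normalized counts of 106 and 75.9 in WT, 80.7 and 94.7 in P2KO, and 153 and 139.9 in DKO. Both DKO libraries were above all WT and P2KO libraries, which overlapped each other. Adamts2 rose in DKO by 0.70 ± 0.18 on the log2 scale (SE, n = 2 and 2; 95% interval 0.34 to 1.07; edgeR quasi-likelihood test, Benjamini-Hochberg adjusted p = 0.0196). The call rested on few libraries. It was lost without WT replicate 2, where the log2 fold change was 0.47 (adjusted p = 0.412, edgeR), without DKO replicate 1 (adjusted p = 0.208, edgeR) and without DKO replicate 2 (adjusted p = 0.0874, edgeR). DESeq2 on all 6 libraries gave a log2 fold change of 0.70 with an adjusted p of 0.178, and called 0 of the 38 members to which it gave an adjusted p. The Adamts2 call was also lost with DESeq2 on the 2 genotypes compared, and with the replicate block and length correction together. The other N-proteinases did not pass: Adamts3 had a log2 fold change of 0.10 (95% interval -0.62 to 0.81) and Adamts14 one of 0.03 (-0.84 to 0.90), intervals wide enough to hold the Adamts2 value. At an unadjusted p under 0.05, 5 members were higher in DKO (9.62%, against 7.89% of tested genes) and 0 were lower (against 6.25%), and DESeq2 gave 2 and 0. The count of higher members was 9 without WT replicate 1 and 3 without WT replicate 2 or without DKO replicate 2. Besides Adamts2 and Adam12, the 5 higher members were Adamts10, Adamts5 and Adam3. Adamts10 had normalized counts of 42.8 and 56.5 in WT, 63.0 and 63.9 in P2KO, and 80.5 and 65.7 in DKO, with both DKO libraries above the 4 others and a log2 fold change of 0.55 ± 0.23 (adjusted p = 0.236, edgeR). Adamts5, the aggrecanase gene, had normalized counts of 148 and 134 in WT, 139 and 150.1 in P2KO, and 181 and 180.2 in DKO. Its DKO libraries were again the highest, and its log2 fold change was 0.36 ± 0.15 (adjusted p = 0.223, edgeR). For Adam3 the log2 fold change was 0.14 ± 0.06 (95% interval 0.02 to 0.25; adjusted p = 0.239, edgeR), with 0.21 without DKO replicate 1 and 0.05 without DKO replicate 2, the DKO library with the higher Adam3 count.

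Most members' log2 fold changes in DKO against WT were above 0, 17 of 20 germ-cell and 27 of 32 somatic ones, with medians of 0.07 and 0.13, beside -0.0048 over all tested genes. Of all tested genes, 48.8% were above 0. With 1 library left out, the germ-cell median ran from 0.0364 (without DKO replicate 2) to 0.105 (without WT replicate 1). The somatic median ran from 0.0772 (without DKO replicate 2) to 0.2209 (without DKO replicate 1). The 12 germ-cell members of chromosome 8, which lie in several separate groups, had a median of 0.06 in DKO against WT and 0.12 in P2KO against WT, and those of chromosome 12 had 0.09 and 0.18. These comparisons share the WT libraries, so the values are given side by side and their likeness is not a result. Over all tested genes, 428 were called higher and 240 lower in DKO, a share of 64.1% higher that upper-quartile scaling moved to 53.3% (367 and 322), while Adamts2 was called under either scaling. The total called over all genes was 668 with all libraries, 1065 without WT replicate 1, 456 without WT replicate 2, 340 without DKO replicate 1 and 250 without DKO replicate 2, so counts over all genes depended strongly on single libraries. The direction did too, since without WT replicate 2 there were 217 higher and 239 lower, a share of 47.6% higher. All 20 germ-cell members had a 95% interval within 1.5-fold either way, and the largest germ-cell log2 fold change was 0.16, of Adam34. Among somatic members, 13 of 32 had an interval within 1.5-fold, and the largest log2 fold changes without a call were those of Adamts15 (0.65, 95% interval -0.03 to 1.33) and Adam33 (0.56, -0.51 to 1.62).

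**Figure D2:**
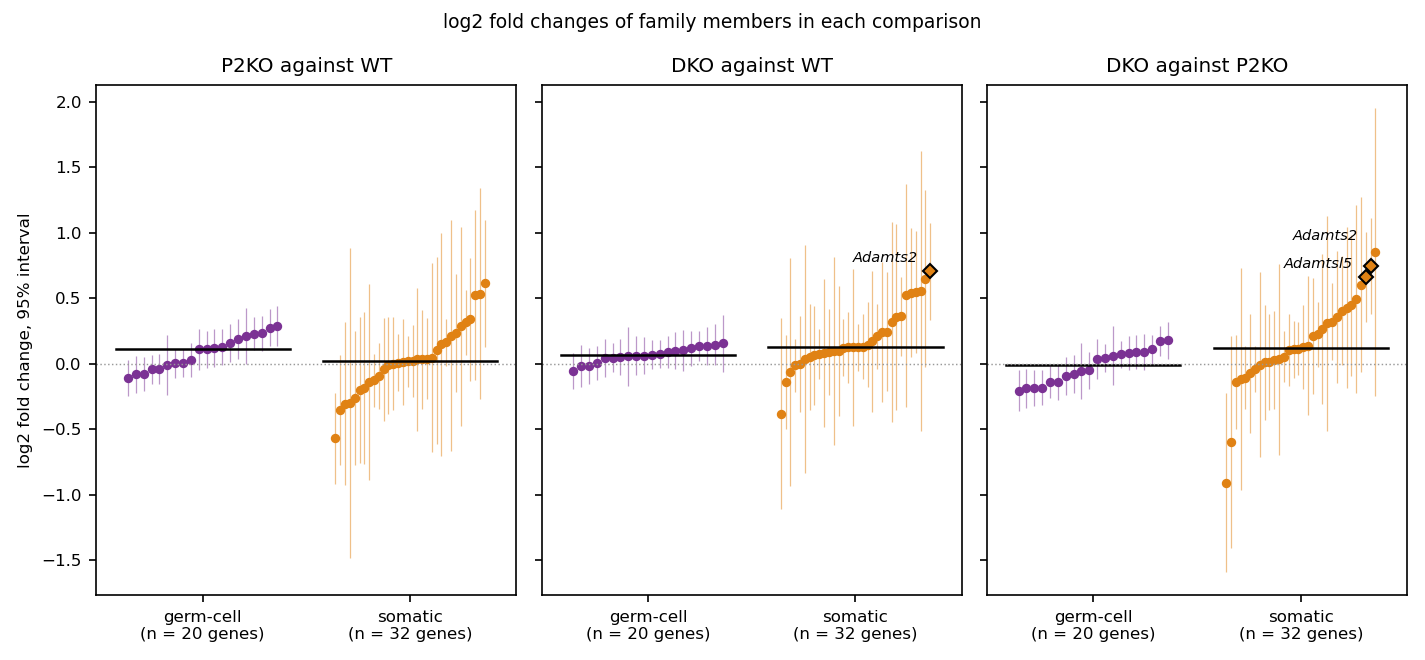
log2 fold change (vertical axis) of each member in the 3 comparisons, with its 95% interval, for 20 germ-cell (purple) and 32 somatic (orange) members ordered by value, where black lines are the class medians and outlined diamonds are called members. Germ-cell members lie within 0.3 of 0 in all 3 panels, somatic members spread further with wider intervals, and the called members are Adamts2 in both DKO comparisons and Adamtsl5 against P2KO.

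DKO was compared with P2KO to ask what the Padi4 deletion adds to the Padi2 gene trap, although Padi4 RNA itself was not called between these genotypes. The called members were 2 of 52 (3.85%), Adamts2 and Adamtsl5, against 1.21% of all tested genes. Adamts2 rose by 0.75 ± 0.18 on the log2 scale (95% interval 0.38 to 1.12; edgeR quasi-likelihood test, Benjamini-Hochberg adjusted p = 0.0245). Adamtsl5 (ENSMUSG00000043822, chr10:80339110-80348412) had normalized counts of 122 and 143 in WT, 94.0 and 84.1 in P2KO, and 139 and 144 in DKO. Its P2KO libraries were the lowest, and its DKO and WT libraries overlapped. Adamtsl5 rose in DKO against P2KO by 0.66 ± 0.17 (95% interval 0.32 to 1.01; edgeR quasi-likelihood test, Benjamini-Hochberg adjusted p = 0.0394), whereas DKO against WT gave 0.09 (-0.24 to 0.42). Both calls were lost without either P2KO library or either DKO library, and with the replicate block (adjusted p = 0.0570 for Adamts2 and 0.0731 for Adamtsl5, edgeR). Adamtsl5 also missed the threshold among genes with a mean of at least 50 counts (adjusted p = 0.0504, edgeR) and with block plus length (0.0525). Without P2KO replicate 1 or 2 the adjusted p of Adamts2 was 0.310 or 0.0536, and without DKO replicate 1 or 2 it was 0.249 or 0.109 (edgeR). The adjusted p of Adamtsl5 in the same order was 0.124, 0.248, 0.183 and 0.285 (edgeR). DESeq2 on all 6 libraries called 0 of the 38 members to which it gave an adjusted p, with 0.214 for Adamts2 and 0.257 for Adamtsl5. Adam3 passed the threshold without WT replicate 1 or without WT replicate 2, with adjusted p of 0.0142 and 0.00989 (edgeR), and its value in the fit of all libraries was 0.18 ± 0.06 (adjusted p = 0.140, edgeR). The log2 fold change of Adam3 was lower without P2KO replicate 1, at 0.12 (adjusted p = 0.712, edgeR), and without DKO replicate 2, at 0.09 (adjusted p = 0.764, edgeR).

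At an unadjusted p under 0.05, 5 members were higher in DKO than in P2KO (9.62%, against 6.17% of tested genes) and 6 were lower (11.5%, against 5.68%). DESeq2 on all 6 libraries gave 5 and 5. The counts by edgeR were 3 and 2 without P2KO replicate 1, 6 and 4 without P2KO replicate 2, 8 and 1 without DKO replicate 1, and 3 and 5 without DKO replicate 2. The higher ones were Adamts2, Adamtsl5, Adamts5 (0.32 ± 0.15), Adam30 (0.18 ± 0.07) and Adam3, and the lower ones were Adamtsl2 and the germ-cell genes Adam26a, Adam29, Adam4, Adam6a and Adam24. Adamtsl2, a matrix protein gene linked to fibrillin and growth factor signalling, had normalized counts of 27.0 and 26.8 in WT, 48.8 and 27.7 in P2KO, and 19.2 and 22.3 in DKO. P2KO replicate 1 stood above the 5 other libraries, the DKO libraries were the lowest, and the log2 fold change was -0.91 ± 0.34 (adjusted p = 0.222, edgeR), or -0.42 without P2KO replicate 1 and -1.23 without P2KO replicate 2. Adam26a, an intron-poor testis ADAM, had normalized counts of 1086 and 1057 in WT, 1165 and 1279.6 in P2KO, and 1008 and 1110.0 in DKO, with both DKO libraries below both P2KO libraries and a log2 fold change of -0.21 ± 0.08 (adjusted p = 0.224, edgeR), or -0.13 without P2KO replicate 2. For Adam29, Adam4, Adam6a and Adam24 the log2 fold changes were -0.19, -0.19, -0.18 and -0.14. Of these 5 lower germ-cell genes, all but Adam4 were also among the 6 that were higher in P2KO than in WT, and both statements rest on the same P2KO libraries. With 2 libraries on each side, an exact permutation of labels cannot reach a p below 0.333, so tests of single genes come only from the fit over all genes.

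**Figure D3:**
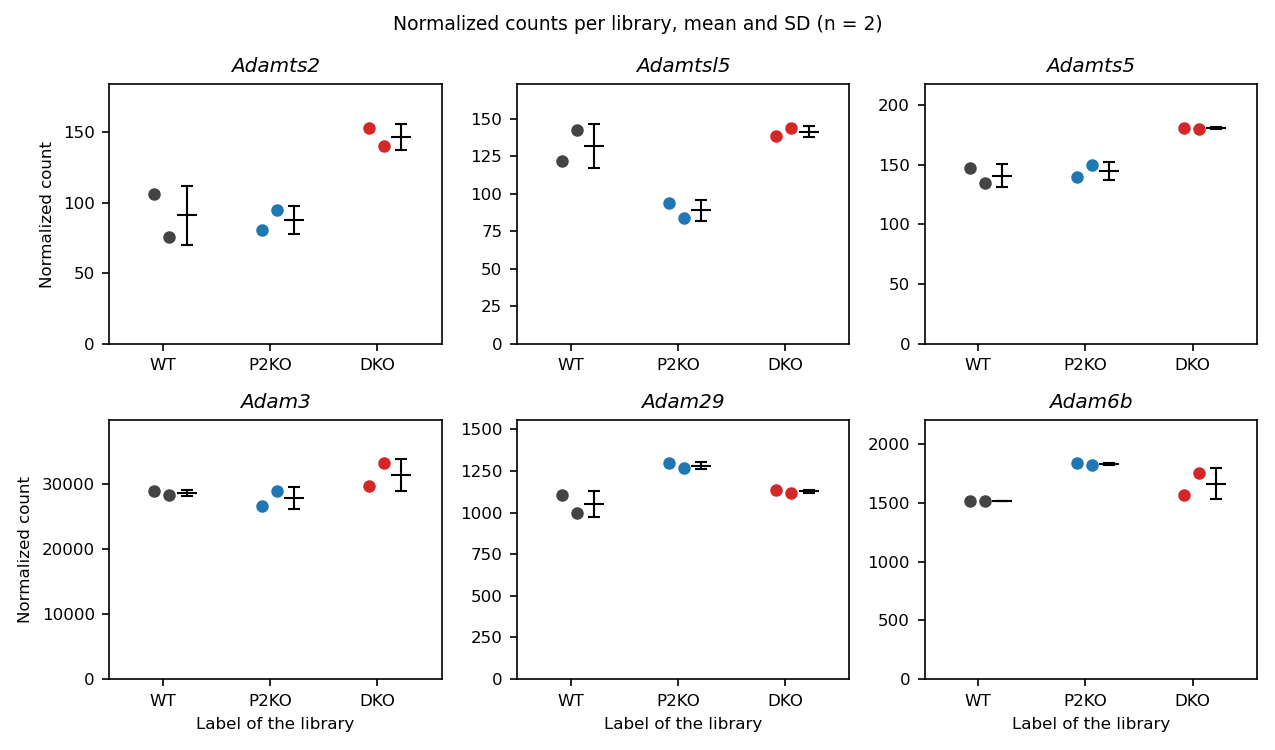
Normalized counts (vertical axis from 0) of 6 members in each library, with points for the libraries labelled WT, P2KO and DKO, and a bar with whiskers for the mean ± SD of each pair (n = 2). Adamts2, Adamts5 and Adam3 are highest in DKO, Adamtsl5 is lowest in P2KO, and Adam29 and Adam6b are highest in P2KO.

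Germ-cell and somatic members were also compared library by library. For each library, the median deviation of the somatic members from their own means over the libraries (log2) was subtracted from that of the germ-cell members. The differences were -0.0122 and -0.0290 in WT, 0.0949 and 0.0721 in P2KO, and -0.0731 and -0.150 in DKO, and the pooled SD within genotypes was 0.0334. P2KO libraries were the highest, DKO libraries the lowest and WT libraries in between, with no overlap between labels. These values per library were not corrected for transcript length. The median merged exon length was 2663.5 nucleotides for germ-cell members and 7449 for somatic members. In the fold changes, the germ-cell median minus the somatic median was 0.0910 for P2KO against WT, -0.0603 for DKO against WT and -0.13 for DKO against P2KO. With correction for transcript length, these were 0.15, 0.0211 and -0.0883, so the sign turned for DKO against WT, and it held for both other comparisons. The P2KO value was 0.0200 without WT replicate 2 and 0.0494 without P2KO replicate 1. The DKO value against WT was -0.0196 without WT replicate 1, -0.0983 without WT replicate 2 and -0.13 without DKO replicate 1, and that against P2KO was -0.21 without DKO replicate 1. Members are not replicates of a genotype, so these differences have no test. The deviation of the somatic members alone was -0.0112 and -0.0504 in WT, -0.0714 and -0.0162 in P2KO, and 0.0535 and 0.196 in DKO, and that of the germ-cell members was -0.0234 and -0.0794 in WT, 0.0234 and 0.0559 in P2KO, and -0.0196 and 0.0457 in DKO. DKO replicate 2 had the highest somatic median and WT replicate 2 the lowest germ-cell median.

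Genes that work with the family were read from the same fit. Of 21 genes for the maturation of ADAM3 and for its partners on sperm, which include chaperones of the endoplasmic reticulum and proteins required for ADAM3 to reach the sperm surface, 0 were called in P2KO against WT (edgeR; 2 higher and 1 lower at an unadjusted p under 0.05), 1 was called higher in DKO against WT (4 higher and 2 lower), and 0 were called in DKO against P2KO (2 higher and 2 lower). Over all tested genes, the shares called were 0.337%, 3.22% and 1.21% in the same order, and the shares at an unadjusted p under 0.05 were 4.55%, 7.89% and 6.17% higher and 4.02%, 6.25% and 5.68% lower, against which the counts of this list and those below are to be read. The 1 called of 21 was 4.76%, near the share over all genes, and DESeq2 on all 6 libraries also called 0, 1 and 0. The called gene was Prss37, a testis serine protease homologue needed for ADAM3 processing, with normalized counts of 3542 and 3726 in WT, 3867 and 3700.5 in P2KO, and 4287 and 4379.6 in DKO. Both DKO libraries were above the 4 others, and Prss37 rose by 0.25 ± 0.06 on the log2 scale (edgeR quasi-likelihood test, Benjamini-Hochberg adjusted p = 0.00998), with adjusted p of 0.0860 and 0.172 without DKO replicate 1 and 2. The most abundant genes of this list were Cmtm2b at 765 TPM and Lypd4 at 675 TPM, levels between those of Adam5 and Adam32, and neither passed the test (log2 fold changes in DKO against WT of -0.09 and 0.03). Of 18 genes that control shedding, the TIMP inhibitors, iRhoms, proprotein convertases and tetraspanins, 17 were tested and 0 were called in any comparison by edgeR or by DESeq2 on all 6 libraries. At an unadjusted p under 0.05, 1 was higher and 0 lower in P2KO against WT, 3 higher and 1 lower in DKO against WT, and 0 higher and 1 lower in DKO against P2KO. Timp2, an inhibitor of metalloproteases, led with 97.6 TPM, and Frmd8, which stabilises the iRhoms and ADAM17, followed with 36.1 TPM.

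Of a list of 25 substrates of sheddases and ADAMTS proteases, which also held 4 LGI genes, whose proteins are ligands of the neural ADAMs and not substrates, 19 were tested, and Areg, Btc, Ereg, Tnf, Bcan and Lgi1 were not. Fbn2, a fibrillin gene, and Ncan, which encodes neurocan, were the most abundant, at 11.1 and 6.49 TPM. Of the tested genes, 0 were called in P2KO against WT (2 higher and 3 lower at an unadjusted p under 0.05, with the ligand gene Lgi3 among the higher), 0 in DKO against WT (3 and 0) and 1, Col1a2, in DKO against P2KO (6 and 0), by edgeR. DESeq2 on all 6 libraries called 0 in each comparison, with 1 higher and 1 lower, 2 and 0, and 3 and 0 at an unadjusted p under 0.05. Col1a2, which encodes a chain of type I procollagen, a substrate of ADAMTS2, had normalized counts of 517 and 534 in WT, 394 and 492 in P2KO, and 618 and 583 in DKO. Its P2KO libraries were the lowest and its DKO libraries the highest, and it rose by 0.45 ± 0.10 in DKO against P2KO (edgeR quasi-likelihood test, Benjamini-Hochberg adjusted p = 0.0125). That call was lost without P2KO replicate 1, where the log2 fold change was 0.29 (adjusted p = 0.429, edgeR), and without DKO replicate 1 or 2 (adjusted p = 0.217 and 0.0827, edgeR). The other fibrillar collagen genes on the list gave log2 fold changes of 0.39 ± 0.13 for Col1a1 and 0.31 ± 0.11 for Col3a1 (adjusted p = 0.168 and 0.185, edgeR). Col1a1, Col1a2 and Col3a1 were the 3 genes lower in P2KO against WT at an unadjusted p under 0.05 (edgeR). Their values there were -0.28, -0.25 and -0.29, and in DKO against WT they were 0.12, 0.19 and 0.02.

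Markers of testis cell types were read beside the members, since members differ in the cells that express them. Of the 8 elongating spermatid markers, 1 was called lower in P2KO against WT (Tnp2, -0.29), 2 were called lower in DKO against WT (Prm1, -0.22, and Tnp1, -0.25) and 0 were called in DKO against P2KO, and their summed TPM was 57551 and 56953 in WT, 48799.5 and 53051 in P2KO, and 53190 and 51997 in DKO, with Prm2 the most abundant. At an unadjusted p under 0.05 (edgeR), 0 were higher and 4 lower in P2KO against WT, and also in DKO against WT. In DKO against P2KO, 2 were higher and 0 lower. The WT sums were above the 4 others, although without P2KO replicate 1 the adjusted p of Tnp2 was 0.0784, and without DKO replicate 1 or 2 those of Prm1 were 0.269 and 0.139 and those of Tnp1 0.228 and 0.0636 (edgeR). Prm1 also missed the threshold without WT replicate 2, at 0.0992. Both calls in DKO against WT were lost with DESeq2 on all 6 libraries, the length correction, and block plus length, where the adjusted p was 0.0665, 0.325 and 0.262 for Prm1 and 0.393, 0.194 and 0.156 for Tnp1, while Tnp2 in P2KO against WT was called in each of these. The summed TPM of the 8 round spermatid markers, led by Tssk2, was 2193 and 1957 in WT, 2184 and 2109.8 in P2KO, and 2194 and 2139 in DKO, and at an unadjusted p under 0.05, 3 of 8 were higher and 0 lower in P2KO against WT. Only Spaca1 was called, lower in DKO against P2KO (-0.25, and -0.15 without P2KO replicate 1; adjusted p = 0.0402, edgeR; 0.614 without P2KO replicate 1 and 0.215 and 0.399 without DKO replicate 1 and 2; 0.0643 by DESeq2 on all 6 libraries and 0.0588 with the length correction). The Spaca1 call was also lost with the replicate block and with block plus length. Of 8 Leydig cell markers, 4 were called higher in DKO against WT (Cyp17a1, Cyp11a1, Star and Hsd3b6) and 1 lower (Hsd3b1), 1 (Hsd3b6) was called higher in DKO against P2KO, and the summed TPM of the list, led by Cyp17a1, was 714 and 682 in WT, 765 and 692 in P2KO, and 896 and 739.6 in DKO. Their log2 fold changes in DKO against WT were 0.31, 0.28, 0.51, 0.41 and -0.46 in the order named. DKO replicate 1 had the highest Leydig cell sum, and without it the adjusted p of Cyp17a1, Cyp11a1, Hsd3b6 and Hsd3b1 was 0.805, 0.811, 0.0725 and 0.0860 in DKO against WT (edgeR). The log2 fold changes of Cyp17a1 and Cyp11a1 were 0.08 and 0.07 without DKO replicate 1 and 0.51 and 0.45 without DKO replicate 2. DESeq2 on all 6 libraries called Hsd3b6 and Hsd3b1, and its adjusted p was 0.662 for Cyp17a1, 0.526 for Cyp11a1 and 0.186 for Star. Cyp11a1 also missed the threshold with upper-quartile scaling (0.0524), with the replicate block (0.0716) and with edgeR on the 2 genotypes (0.0765). The 6 endothelial markers, of which 5 were tested and 0 called by edgeR, had summed TPM of 7.22 and 6.88 in WT, 7.87 and 7.69 in P2KO, and 7.97 and 8.34 in DKO, led by Cdh5. Both DKO sums were above all WT and P2KO sums, and 2 markers (Kdr, 0.66, and Tek, 0.57) were higher in DKO against WT at an unadjusted p under 0.05. Of the other lists without a call in any comparison, the 8 spermatogonial markers summed to 105 to 114.7 TPM (led by Uchl1), the 8 spermatocyte markers to 7227 to 7448 TPM (Ldhc), the 10 Sertoli cell markers to 486 to 561 TPM (Amhr2), the 6 peritubular and smooth muscle markers to 529 to 595 TPM (Actg2) and the 5 macrophage markers to 21.4 to 25.7 TPM (Mrc1). Their counts higher and lower at an unadjusted p under 0.05, for P2KO against WT, DKO against WT and DKO against P2KO in turn, were 1 and 0, 0 and 1, 0 and 2 for spermatogonia, 0 and 1, 0 and 0, 1 and 0 for spermatocytes, 1 and 0, 0 and 0, 0 and 2 for Sertoli cells, 0 and 1, 0 and 0, 2 and 0 for peritubular cells and smooth muscle, and 0 and 1, 0 and 0, 1 and 0 for macrophages. Median log2 fold changes in P2KO against WT, where the germ-cell members had 0.11, were 0.10 for spermatogonial, -0.02 for spermatocyte, 0.10 for round spermatid, -0.12 for elongating spermatid, 0.10 for Sertoli cell, 0.11 for Leydig cell, -0.15 for peritubular and smooth muscle, 0.15 for endothelial and -0.13 for macrophage markers, so several lists lay near the germ-cell members in the fit of all libraries. Without WT replicate 2 the germ-cell median was 0.0271. The Leydig cell list held markers in both directions, with 2 higher and 3 lower at an unadjusted p under 0.05 (edgeR). The peritubular and smooth muscle sum was mostly 1 gene, since Actg2 averaged 505 TPM and the median over the list was 7.96 TPM. In DKO against WT, where the somatic members had 0.13, the medians were 0.0085 for spermatogonial, -0.03 for spermatocyte, 0.04 for round spermatid, -0.09 for elongating spermatid, -0.05 for Sertoli cell, 0.18 for Leydig cell, 0.02 for peritubular and smooth muscle, 0.43 for endothelial and 0.00 for macrophage markers, so lists of somatic cells differed in sign and size. The median of the somatic members ran from 0.0772 to 0.2209 with 1 library left out. The summed TPM of the 5 adipocyte markers, led by Adipoq, was 14.3 and 15.8 in WT, 14.1 and 14.4 in P2KO, and 15.5 and 14.3 in DKO. Among these, Car3, with normalized counts of 11.3 and 27.8 in WT, 0 and 0 in P2KO, and 7.66 and 14.8 in DKO, was called lower in P2KO against WT (adjusted p = 0.000462, edgeR) and higher in DKO against P2KO (adjusted p = 0.00744, edgeR), the latter with adjusted p of 0.127, 0.0906 and 0.189 without P2KO replicate 1, P2KO replicate 2 and DKO replicate 2. The 8 epididymal markers summed to 0.826 to 1.70 TPM, with Defb20 the most abundant and Lcn5 at 0 in all libraries, and none was tested. How far changes in these cell types account for the members' values was not tested.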

How the data were processed

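Bulk testis RNA was sequenced in 6 libraries, 2 for each genotype label. The authors deposited 1 table of counts, whole numbers of reads per gene without normalization or filter, and the submitters' processing notes name Trim Galore, cutadapt, STAR, DESeq2 and GRCm38, without versions. All 55536 gene identifiers were found in GENCODE mouse release 21 (Ensembl release 96), the source of positions, exon lengths, coding sequences and overlaps. The tests used edgeR 4.0.16 and limma 3.58.1 under R 4.3.3. Of these genes, 20744 passed filterByExpr with a minimum count of 10 and were scaled by TMM. All 6 libraries entered 1 quasi-likelihood fit (glmQLFit, glmQLFTest) with genotype as the only term, which left 3 residual degrees of freedom. Benjamini-Hochberg adjustment covered every tested gene, and a call needs an adjusted p under 0.05. Normalized counts are counts scaled by TMM to a common library size, the geometric mean over libraries. The pipeline was also run on simulated counts, with 199 changed genes in DKO against WT. It called 174 of them, and 14 other calls (7.45% of calls) were false. Of simulated log2 changes of size 1, 78.5% were called, and of size 2, 95.3%. Alternatives were RLE and upper-quartile scaling, no filter, a mean of at least 50 counts, DESeq2 1.42.0 with 6 libraries or only those being compared, edgeR with only those being compared, genes off chromosome 4, a lowess correction for length (span 0.3), a block for the replicate number with and without that correction, and each library left out in turn. BLAST 2.17.0 was used to find near-identical copies (at least 95% identity, 150 nucleotides and 50% of the shorter transcript). Named genes are all called members, up to 3 members per direction and comparison with the most extreme log2 fold changes at an unadjusted p under 0.05, the 3 most abundant members of each role list, called genes and the 2 most abundant genes of each pathway list, members next to the count minimum, and Padi2 and Padi4. The other members with an unadjusted p under 0.05, other members named for their level, interval or sequence, Col1a1, Col3a1 and called marker genes were added after their values had been seen. Of the listed genes, 1 macrophage marker was left out for starting in the excluded stretch of chromosome 4. The members and lists were chosen with earlier results of these data known.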

Additional observations from a re-analysis of the deposited data

How the results depend on the processing

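In P2KO against WT, genes called (70) became 140 with no filter, 41 with DESeq2 on all libraries, 40 with DESeq2 on the compared genotypes, 24 off chromosome 4 and 45 with the replicate block, and 53 to 311 with 1 library left out; members called (0) became 1 with no filter and 3 with the length correction with or without the block (3 and 3), and 0 to 1 with 1 library left out. The germ-cell minus somatic median was 0.1475 with the length correction, 0.1461 with block and length, and 0.02 to 0.1091 with 1 library left out. In DKO against WT, genes called (668) became 403 and 296 with DESeq2 on all and on compared genotypes, 555 with the block, and 250 to 1065 with 1 library left out, and members called (1) became 0, 0, and 0 with block and length, and 0 to 1. The median difference was 0.0211, 0.0163 and -0.1314 to -0.0196. In DKO against P2KO, genes called (250) became 162 with DESeq2 on all libraries, 579 with edgeR on the compared genotypes, 189 with the block, and 108 to 622, and members called (2, Adamts2 and Adamtsl5) became 3 with no filter or with edgeR on the compared genotypes (Adam3 added), 1 with a mean of 50 counts (Adamts2), 0 with DESeq2 on all libraries, 1 with DESeq2 on the compared genotypes (Adam3; neither of the 2 got an adjusted p there, as only 15 of 52 members did), 0 with the block, 1 with block and length (Adamts2), and 0 to 3. The median difference was -0.0883, -0.0887 and -0.2079 to -0.1211. The germ-cell to somatic TPM ratio was 47.15 with longest-transcript lengths. With 1 library left out, Adamts2 in P2KO against WT ran from -0.2785 to 0.1984 and Adamtsl5 in DKO against WT from -0.0161 to 0.2166. Libraries of the same replicate number share only that number, and the correlation of their deviations was -0.0572, 0.0574 and -0.0502 between WT and P2KO, WT and DKO, and P2KO and DKO.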
